A study of Mus musculus with 24 samples.

Results

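Chromatin accessibility was examined at 33 lysosome genes of mouse bone marrow-derived macrophages (BMDMs): membrane proteins, cathepsins and other peptidases, glycosidases, lipid-handling proteins, proton pump subunits and the transcription factors of the MiT family. A region of open chromatin (a peak) was included when it overlapped the body of 1 of these genes or the 10 kb upstream of it, and it was given to the nearest such gene. This gave 344 of 184158 consensus peaks. Of these, 37 lay on an annotated transcription start site (TSS) of a member, at least 1 for each of the 33 genes, and 307 lay elsewhere in the gene or upstream of it. TSS peaks and other peaks were compared apart. The member was also the gene with the nearest TSS for 295 of the 344 peaks, and the other peaks of the set may belong to neighbouring genes.

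The lysosome is the acidic compartment in which a cell breaks down what it has taken up or wants to recycle. Its membrane is lined by heavily glycosylated LAMP proteins, a vacuolar ATPase pumps protons into it, and cathepsins, glycosidases, lipases and sphingolipid hydrolases work inside at low pH. Many of their genes carry a CLEAR element, an extended E-box to which TFEB and its relatives MITF and TFEC bind, and macrophages, which live by phagocytosis, are rich in lysosomes.

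The 24 ATAC-seq libraries (a transposase cuts and tags open DNA, which is then sequenced) fell into 4 groups of 6, WT or AhR-KO macrophages that were either left unstimulated or given LPS. AhR, the aryl hydrocarbon receptor, is a transcription factor switched on by ligands, and LPS is the bacterial lipopolysaccharide sensed by TLR4. The study grew the cells to resemble alveolar macrophages and asked what the loss of AhR does to them. WT mice were C57/B6/J, whereas AhR-KO mice lacked Ahr in every cell and came from a B6.129 line, so that the Ahr allele and other 129-derived sequence kept with it cannot be told apart. All marrow was cultured in 10% serum with 10 ng/ml GM-CSF and 2 ng/ml TGF-β. LPS (97 EU/ml) was added on day 6 for 24 h and was followed by 5 µM of the calcium ionophore A23187 for 10 min. Every library carries the same treatment text, so whether unstimulated cultures also received the ionophore is not given. Per the study's methods the libraries of a group came from separate animals of a single experiment. The sources used here do not say whether an unstimulated and an LPS culture shared an animal.

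Totals in consensus peaks ran from 8.54 to 34.6 M (mega) fragments per library, with group medians of 20.8 M (WT unstimulated), 22.6 M (AhR-KO unstimulated), 30.4 M (WT LPS) and 25 M (AhR-KO LPS). Levels are given as CPM, the count over a library's normalized total in M, as the lowest, the median and the highest of the 6 libraries of a group. The Ahr TSS peak, the check on the genotype, read 20.2, 22.2 and 24.5 CPM in WT unstimulated, 11.5, 13.1 and 15.1 CPM in AhR-KO unstimulated, 18.9, 19.9 and 22.1 in WT LPS and 11.8, 15.1 and 16.7 in AhR-KO LPS libraries. The WT and AhR-KO libraries did not overlap in either condition. The log2 fold change of AhR-KO against WT was -0.78 (SE 0.0769) without LPS. With LPS it was -0.45 (SE 0.0738), a change of less than 1.5-fold, so the Ahr start stayed partly open in AhR-KO cells. Of 8 macrophage marker genes, 8 had a TSS peak, against 9 of 18 marker genes of other cell types. Among the markers without a TSS peak were the B cell genes Cd79a and Pax5, the T cell genes Cd3e, Cd4 and Lck, and the neutrophil genes Ly6g and Elane. The neutrophil gene S100a8 did have one, at 20.6 (WT) and 24.4 (AhR-KO) CPM per kb without LPS and 16.5 and 17.5 CPM per kb with it, above the median of all TSS peaks (12.9), and the dendritic cell genes Flt3 and Zbtb46 and the fibroblast gene Pdgfra had weaker ones (3.16 to 10.4 CPM per kb).

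The main TSS peaks of the members were broadly open. All 33 were called as a peak in all 24 libraries, whereas 97 of the 307 other peaks were. The same shares were not counted over the peaks of all genes, so these counts do not set the members apart. Per kb of peak, the main TSS peaks stood at a median percentile of 69.8 among the TSS peaks of all genes. Ctsc, the dipeptidyl peptidase cathepsin C, had the most open start of the set at 53.7 CPM per kb (percentile 97.9), followed by Npc2, which carries cholesterol inside the lysosome, at 47.8 CPM per kb (percentile 96.7). Asah1 (acid ceramidase), Ctsz (cathepsin Z) and Atp6v0d2, a subunit of the proton pump, were at percentiles 93.4, 93.3 and 91.4. At the other end stood Gaa, the acid alpha-glucosidase that clears glycogen, at 3.76 CPM per kb (percentile 15.8), and Ctsk, the collagen-cleaving cathepsin K, at 5.3 CPM per kb (percentile 22.4).

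Promoter sequences are shown here for the motif that the MiT factors bind and for the starts that changed most between groups. RefSeq promoters (250 bases before to 50 after a start, GRCm38.p6) matched 27 of the 33 members, with 33 promoters. The motifs were searched on both strands, and a match is a description of the letters, not of a bound site. The CLEAR core GTCACGTG, which holds an E-box (CACGTG), was present in 6 of the 33 promoters (18.2%), those of Ctsa, Ctsd, Gla, Glb1, Lamp1 and Mcoln1, against 2.25% of all 32851 promoters. The E-box alone was in 8 promoters (24.2%) against 7.15%, and the core of the AhR binding motif, GCGTG, in 12 promoters (36.4%) against 32.4%. The promoter of Mcoln1 (the calcium channel of the lysosomal membrane, chr8:3500269-3500568, plus strand), that of Lamp1 (chr8:13158911-13159210, plus strand) and that of Ctsd (cathepsin D, chr7:142387778-142388077, minus strand) are printed with their E-boxes in capitals. The promoters of Ctsk (chr3:95498960-95499259, plus strand) and Tfec (chr6:16898392-16898691, minus strand) held none of the 5 motifs searched, which also included AP-1 (TGANTCA) and PU.1 (GAGGAAGT), and hence carry no capitals.
Mcoln1 promoter: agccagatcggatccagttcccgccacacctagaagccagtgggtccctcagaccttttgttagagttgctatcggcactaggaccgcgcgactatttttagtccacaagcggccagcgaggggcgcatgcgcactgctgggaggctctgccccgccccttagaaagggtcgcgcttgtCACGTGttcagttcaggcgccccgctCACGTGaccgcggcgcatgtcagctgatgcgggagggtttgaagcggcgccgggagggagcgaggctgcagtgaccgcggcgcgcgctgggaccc
Lamp1 promoter: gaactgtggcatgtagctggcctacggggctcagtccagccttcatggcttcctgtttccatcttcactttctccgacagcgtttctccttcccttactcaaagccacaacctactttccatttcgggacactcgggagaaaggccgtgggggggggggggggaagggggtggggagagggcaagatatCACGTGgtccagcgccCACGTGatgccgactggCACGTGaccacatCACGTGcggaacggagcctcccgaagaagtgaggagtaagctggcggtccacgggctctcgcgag
Ctsd promoter: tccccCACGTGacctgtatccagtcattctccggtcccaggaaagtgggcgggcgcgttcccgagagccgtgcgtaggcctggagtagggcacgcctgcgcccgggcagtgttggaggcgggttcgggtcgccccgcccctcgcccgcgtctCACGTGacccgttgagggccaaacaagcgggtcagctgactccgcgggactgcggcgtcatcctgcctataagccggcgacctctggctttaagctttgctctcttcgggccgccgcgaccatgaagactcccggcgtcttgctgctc
Ctsk promoter: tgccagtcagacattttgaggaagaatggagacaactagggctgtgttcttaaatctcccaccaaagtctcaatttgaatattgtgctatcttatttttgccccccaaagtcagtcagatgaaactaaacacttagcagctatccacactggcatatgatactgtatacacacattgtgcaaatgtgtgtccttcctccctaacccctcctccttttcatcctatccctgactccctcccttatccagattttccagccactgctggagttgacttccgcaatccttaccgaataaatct
Tfec promoter: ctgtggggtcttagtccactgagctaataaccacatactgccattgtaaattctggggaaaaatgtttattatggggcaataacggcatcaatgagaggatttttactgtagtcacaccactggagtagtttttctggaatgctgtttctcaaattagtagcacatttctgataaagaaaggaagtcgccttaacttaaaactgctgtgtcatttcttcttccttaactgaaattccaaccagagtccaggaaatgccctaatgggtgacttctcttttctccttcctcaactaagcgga

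The first comparison asked how the loss of AhR changed these genes in unstimulated cells. Of their peaks away from a start more were higher than lower in AhR-KO cells. Ctsk was the single TSS peak that passed, with 1.89-fold higher accessibility in AhR-KO. Peaks counted as differentially accessible regions (DARs) when edgeR's quasi-likelihood test gave an adjusted p no higher than 0.05 and the groups differed by 1.5-fold or more. By this definition 1 of 37 member TSS peaks was a higher DAR and 0 were lower, against 2.33% and 4.37% of all TSS peaks tested, 6.7% in either direction. Of the 292 member peaks elsewhere that were tested, 46 (15.8%) were higher and 14 (4.79%) lower in AhR-KO, against 10.6% and 13.4% of all such peaks, and 24% of them in either direction. The median log2 fold change of the member peaks away from a start was 0.25, against -0.02 over all such peaks, and 224 of the 292 lay above 0. The 46 higher peaks were spread over 19 genes.

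The Ctsk TSS peak (chr3:95497330-95500488) read 12.1, 15 and 17.6 CPM in WT unstimulated and 22, 29.6 and 34.3 CPM in AhR-KO unstimulated libraries. The 6 AhR-KO libraries all lay above the 6 WT libraries, with a log2 fold change of 0.92 (SE 0.131, adjusted p = 2.17e-06). Its neighbours went with it: the upstream peak (chr3:95494299-95495244) rose by 0.61 (SE 0.112) and the intronic peak (chr3:95504466-95505355) by 0.91 (SE 0.187) on the log2 scale, so that 3 of 3 Ctsk peaks were DARs. With LPS, the Ctsk start read 8.03, 10.2 and 12.8 CPM in WT and 8.96, 13.2 and 17.2 CPM in AhR-KO libraries, which overlapped (log2 fold change 0.31, SE 0.133, adjusted p = 0.0626).

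A few other starts stood higher in unstimulated AhR-KO cells without reaching the fold threshold. Atp6v0d2 (chr4:19922219-19922771), whose product belongs to the membrane sector of the proton pump, read 18.2, 19.8 and 22.9 CPM in WT and 27.9, 29.7 and 30.2 CPM in AhR-KO libraries. This was a 1.48-fold difference with no overlap between groups (log2 fold change 0.57, SE 0.0678, adjusted p = 1.83e-08). Psap encodes prosaposin, the precursor of the saposins that help degrade sphingolipids. Its main TSS peak, on an internal start (chr10:60282458-60285223), read 20.8, 21.4 and 22.2 CPM in WT and 25.8, 30.4 and 43.2 CPM in AhR-KO (log2 fold change 0.57, SE 0.0875, adjusted p = 2.98e-06). With LPS it read 18.3, 19.3 and 21.2 CPM in WT and 22.5, 25.4 and 30.2 CPM in AhR-KO (0.39, SE 0.0851, adjusted p = 2.86e-04), again without overlap. At the other Psap TSS peak (from 60277376) the genotypes overlapped in both conditions. Without LPS that peak spanned 17 to 19.5 CPM in WT and 18.8 to 28 CPM in AhR-KO. With LPS it spanned 14 to 17.3 CPM in WT and 16.9 to 22.3 CPM in AhR-KO. In all, 19 of the 37 TSS peaks had an adjusted p of at most 0.05 in unstimulated cells, as did 47.6% of all TSS peaks, with log2 fold changes that ran from -0.36 (Tpp1, a tripeptidyl peptidase) to 0.92 (Ctsk).

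The remaining starts differed by little between genotypes. In unstimulated cells the log2 fold changes of the other cathepsins were 0.39 for Ctss, 0.32 for Ctsa, 0.07 for Ctsd, 0.06 for Ctsz, 0.01 for Ctsb, -0.06 for Ctsh, -0.09 for Ctsc and -0.35 for Ctsl. Among the glycosidases, Hexa, which trims gangliosides, was at 0.43 and the sialidase Neu1 at 0.26, while Gaa (0.16), Man2b1 (0.13), Gla (0.07), Glb1 (0.01) and Gusb (-0.01) lay nearer to 0. For lipid handling, Npc2 was at 0.24, Asah1 at -0.09, Npc1 and Lipa both at -0.17 and the sphingomyelinase Smpd1 at -0.32. The membrane proteins Lamp1, Lamp2 and Mcoln1 were at 0.22, -0.12 and -0.15, the thioesterase Ppt1 was at 0.03, and the pump subunit Atp6v1h at -0.11. None of these starts was a DAR.

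**Figure D1:**
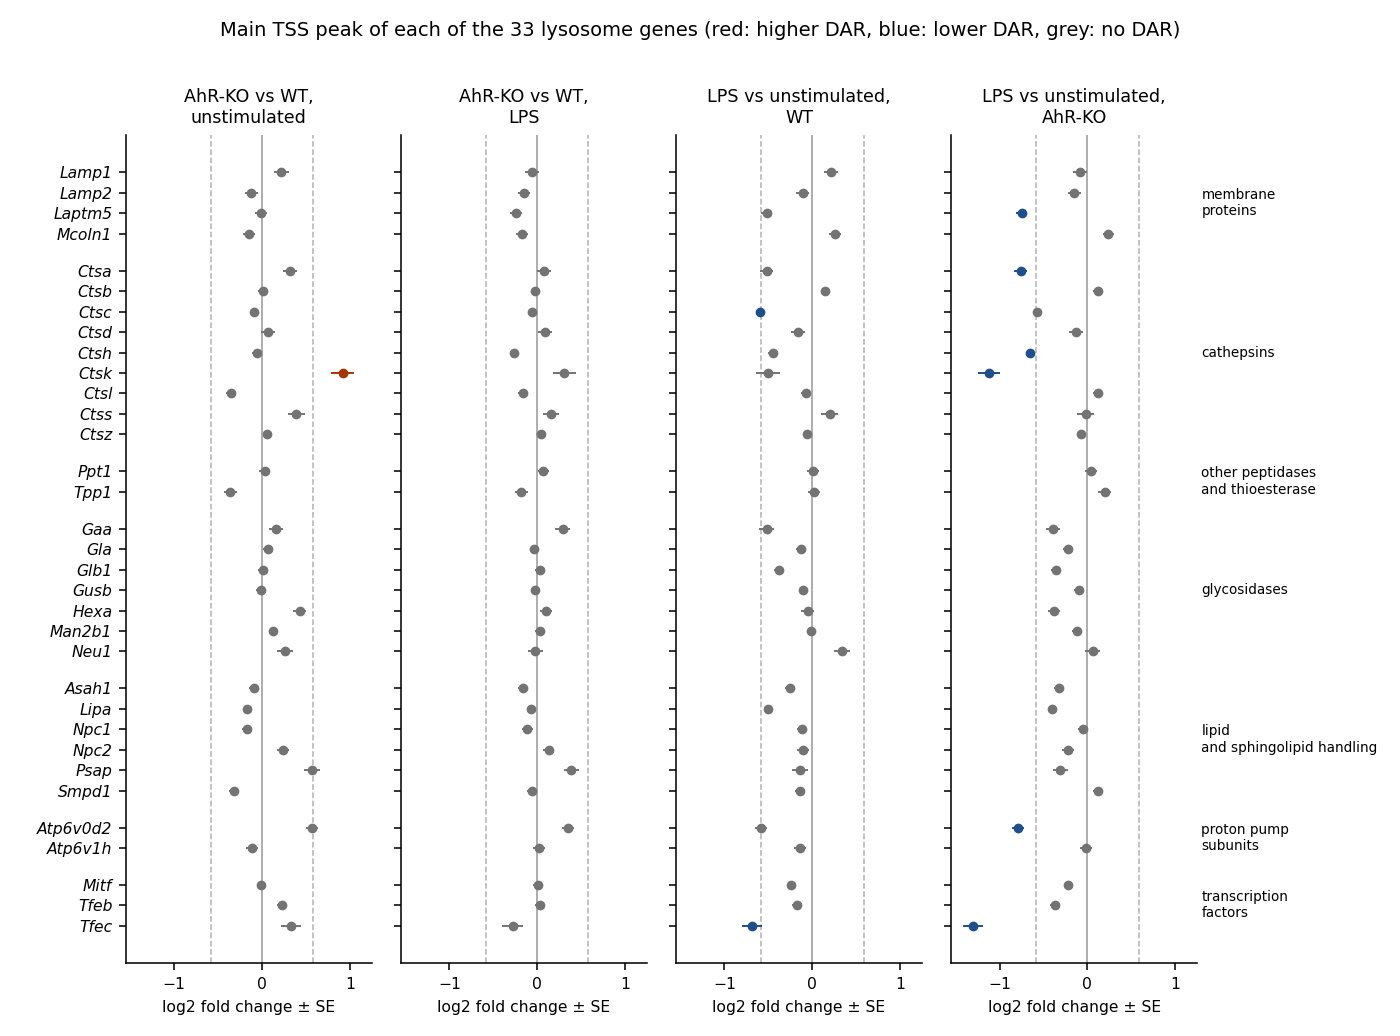
Log2 fold change of the main TSS peak of each of the 33 lysosome genes (vertical axis, grouped by role) in the 4 comparisons between groups (1 panel each); points are edgeR estimates, bars are ± 1 SE, red points are higher and blue points lower DARs, and dashed lines mark a 1.5-fold change. Ctsk stands out at 0.92 in the unstimulated genotype comparison, and the LPS comparison in AhR-KO cells extends to -1.30 (Tfec).

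Away from the starts, the genotype differences reached larger sizes. The largest was a loss of accessibility in an intron of Atp6v1h, a subunit of the catalytic sector of the proton pump, in a peak (chr1:5076128-5076719) whose nearest TSS is that of Rgs20. It read 4.65, 9.05 and 12.5 CPM in WT unstimulated and 0.432, 0.548 and 0.745 CPM in AhR-KO unstimulated libraries, and 0.917, 2.35 and 2.93 against 0.145, 0.226 and 0.36 CPM with LPS. WT and AhR-KO did not overlap in either condition, with 15.8-fold lower accessibility in unstimulated AhR-KO cells (log2 fold change -3.98, SE 0.26, adjusted p = 1.19e-12) and a log2 fold change of -3.21 (SE 0.329, adjusted p = 6.09e-09) with LPS. A peak was called there in 6 of 6 WT unstimulated and 5 of 6 WT LPS libraries and in 0 of 12 AhR-KO libraries. The central 300 bases of this region (chr1:5076273-5076572, GRCm38, plus strand) held neither the AhR core nor any of the other motifs searched.
Atp6v1h peak: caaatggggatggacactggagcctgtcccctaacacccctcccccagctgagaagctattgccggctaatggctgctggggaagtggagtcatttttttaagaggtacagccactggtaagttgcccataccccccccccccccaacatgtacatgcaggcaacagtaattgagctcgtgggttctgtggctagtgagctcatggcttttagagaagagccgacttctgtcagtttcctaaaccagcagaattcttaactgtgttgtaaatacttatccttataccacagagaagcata

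Glb1 encodes the beta-galactosidase of the lysosome. Of its 13 tested peaks away from a start, 2 were lower and 0 higher in AhR-KO without LPS. With LPS 4 were lower and 2 higher. Of all such peaks 13.4% were lower and 10.6% higher without LPS, and 13.7% and 14.4% with it. An intronic peak (chr9:114446133-114446594, nearest TSS that of Tmppe, a gene inside Glb1) read 1.63, 3.86 and 4.88 CPM in WT unstimulated and 0.254, 0.466 and 0.81 CPM in AhR-KO unstimulated libraries. The log2 fold change was -2.95 (SE 0.301, adjusted p = 5.09e-09), and with LPS it was -2.07 (SE 0.269, adjusted p = 3.32e-07), with no overlap in either condition. A second (chr9:114441790-114442664) was lower by -0.94 (SE 0.164) and -1.17 (SE 0.144) in the same comparisons. Ppt1, which removes palmitate from proteins, had an exonic peak (chr4:122854980-122856046) that fell from 7.78, 8.33 and 10.2 CPM in WT to 3.55, 3.91 and 5.23 CPM in AhR-KO unstimulated libraries (log2 fold change -1.05, SE 0.108, adjusted p = 7.71e-10). In Tfec, a MiT family member found mainly in macrophages, an intronic peak (chr6:16847833-16848475) was lower at 1.78, 2.59 and 3.07 CPM in AhR-KO against 3.6, 4.36 and 6.59 CPM in WT (log2 fold change -0.92, SE 0.153, adjusted p = 6.63e-06). These losses were few among the member peaks. The AhR core GCGTG was in the central 300 bases of 1 of the 14 lower peaks (7.14%), against 13.7% of all peaks away from a start.

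Peaks with higher accessibility in unstimulated AhR-KO cells included those of Atp6v0d2, Tfeb, Psap and Lamp2. An intronic peak of Atp6v0d2 (chr4:19911204-19911637) read 2.3, 2.79 and 3.37 CPM in WT and 5.08, 6.29 and 7.51 CPM in AhR-KO, a log2 fold change of 1.16 (SE 0.141, adjusted p = 2.42e-08), whereas with LPS the genotypes overlapped (0.07, SE 0.154, adjusted p = 0.762). Tfeb is the factor named for its part in lysosome biogenesis. An intronic peak of Tfeb (chr17:47769985-47770194) read 1.91, 2.13 and 2.67 CPM in WT against 3.38, 4.71 and 5.12 CPM in AhR-KO (1.08, SE 0.127, adjusted p = 1.24e-08), and it remained higher in AhR-KO with LPS (0.95, SE 0.159, adjusted p = 7.30e-06). Psap had an upstream peak (chr10:60268823-60270065) at 8.5, 10.8 and 11.6 CPM in WT and 15.7, 18.6 and 23 CPM in AhR-KO (0.85, SE 0.0955, adjusted p = 4.53e-09). Its intronic peak (chr10:60279884-60280601) was at 4.88, 5.82 and 6.37 against 7.93, 10.2 and 12.4 CPM (0.85, SE 0.101, adjusted p = 1.65e-08). Both Psap peaks stayed higher in AhR-KO with LPS, by 0.64 (SE 0.0926) and 0.87 (SE 0.0959). Of the 9 Psap peaks away from a start, 4 were higher and 0 lower in AhR-KO in each condition, against 10.6% higher of all such peaks without LPS and 14.4% with it.

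Summed over the 307 peaks away from a start, accessibility was 1735, 1766 and 1864 CPM in WT unstimulated and 1896, 2085 and 2226 CPM in AhR-KO unstimulated libraries, so that the groups did not overlap. The 37 TSS peaks summed to 1237, 1290 and 1342 against 1245, 1372 and 1454 CPM, which overlapped. The TSS peaks of the 8 macrophage marker genes moved the same way: they summed to 193, 211 and 216 CPM in WT and 226, 265 and 300 CPM in AhR-KO unstimulated libraries, with log2 fold changes of 0.02 to 0.57 and 0 DARs (edgeR). The 9 TSS peaks of other cell types summed to 89.4, 96.4 and 102 CPM in WT and 85.3, 88.7 and 95 CPM in AhR-KO, with log2 fold changes of -1.28 to 0.25 (median -0.42), 2 lower DARs and 0 higher. The part of either list in the member result was not tested. In bulk chromatin, a larger share of cells with an open region and a wider opening per cell cannot be told apart.

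With LPS, no member TSS peak differed between genotypes by the DAR definition, whereas the other peaks of the MiT gene Mitf were widely more open in AhR-KO cells. The count of TSS DARs was 0 of 37, against 5.71% lower and 1.8% higher of all TSS peaks (7.5% in either direction), although 11 of the 37 had an adjusted p of at most 0.05 (edgeR; 34.1% of all TSS peaks) and their log2 fold changes ran from -0.28 (Tfec) to 0.39 (Psap). Of the 292 other peaks, 58 (19.9%) were higher and 12 (4.11%) lower in AhR-KO, against 14.4% and 13.7% of all such peaks and 28.1% in either direction. Mitf held 32 of the 58. Without its peaks, 26 of 225 (11.6%) were higher and 12 (5.33%) lower, and the median log2 fold change was 0.13 in place of 0.22.

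**Figure D2:**
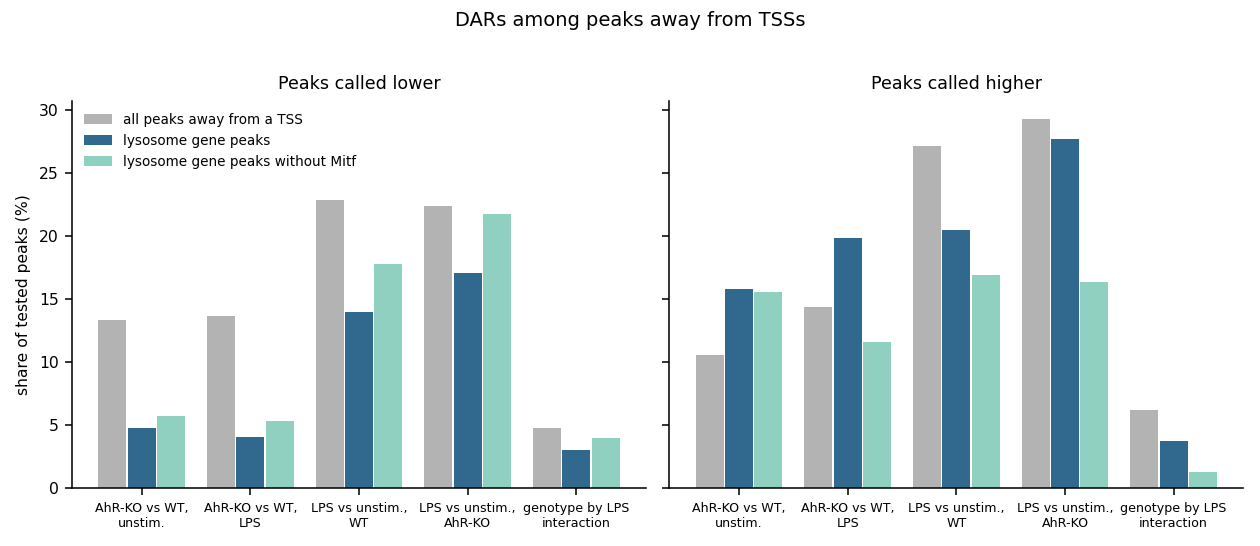
Percent of member peaks away from a start that were lower or higher DARs in each comparison, with all 292 member peaks tested, the 225 without Mitf, and all peaks away from a TSS (159995) side by side. In both genotype comparisons the lower share of the members stays at or below 5.78% against 13.4% and 13.7% of all peaks.

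Mitf, the microphthalmia-associated factor, spans 214 kb of chromosome 6 and holds 72 of the 344 peaks. Its main TSS peak (chr6:97805812-97807636) did not move with genotype, at 44.6, 46.8 and 50.1 CPM in WT unstimulated, 44.5, 46.6 and 50.5 CPM in AhR-KO unstimulated, 36.7, 39.1 and 43.7 in WT LPS and 37, 40 and 43.6 CPM in AhR-KO LPS libraries. The log2 fold change between genotypes was -0.01 without LPS and 0.01 with it. Its 70 peaks away from a start summed to 263, 275 and 284 CPM in WT unstimulated, 298, 311 and 316 CPM in AhR-KO unstimulated, 292, 307 and 328 in WT LPS and 376, 386 and 437 CPM in AhR-KO LPS libraries. The AhR-KO LPS libraries thus lay above every other library. The 70 peaks come from calls merged over all 24 libraries, so peaks called mainly in AhR-KO LPS libraries enter this sum. Of the 70, 22 were called in 0 of 6 WT LPS libraries and 7 in 0 of 6 AhR-KO LPS libraries. The part of such peaks in the sum was not tested. The 32 Mitf peaks that were higher in AhR-KO with LPS had log2 fold changes of 0.62 to 1.33 (median 1.06) and were spread from 3.9 kb upstream to 213 kb downstream of the gene start.

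These 32 were picked for being lower in WT LPS than in AhR-KO LPS libraries. Their lower level in WT LPS follows from that rule. In WT unstimulated libraries they had a median of 0.595 CPM, and the 35 tested Mitf peaks that were not called had a median of 3.5 CPM. Of the 32, 3 passed the low-count filter only through the AhR-KO LPS libraries, so that a low level elsewhere was built into their selection. Of the 70 peaks, 37 were called in 0 of 6 WT unstimulated libraries, 30 in 0 of 6 AhR-KO unstimulated, 22 in 0 of 6 WT LPS and 7 in 0 of 6 AhR-KO LPS libraries (52.9%, 42.9%, 31.4% and 10%). Over all consensus peaks away from a start these shares were 35.3%, 35.9%, 26.3% and 28.1%. Group totals, which bear on peak calling, were those given above, with the WT LPS group the deepest, and their part was not tested. One of them (chr6:97802954-97803356), upstream of the gene, read 0.22, 0.369 and 0.551 CPM in WT unstimulated, 0.364, 0.603 and 0.823 CPM in AhR-KO unstimulated, 1.14, 1.58 and 1.75 in WT LPS and 2.95, 3.8 and 4.1 CPM in AhR-KO LPS libraries. With LPS the genotypes did not overlap (log2 fold change 1.27, SE 0.14, adjusted p = 3.08e-09). An intronic peak (chr6:97909736-97912454) read 1.84, 2.46 and 3.25, then 2.77, 3.22 and 3.57, then 2.61, 2.9 and 3.67, and 5.59, 6.39 and 7.35 CPM in the same groups. It was 2.1-fold more open in AhR-KO with LPS (1.07, SE 0.112, adjusted p = 1.20e-09).

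**Figure D3:**
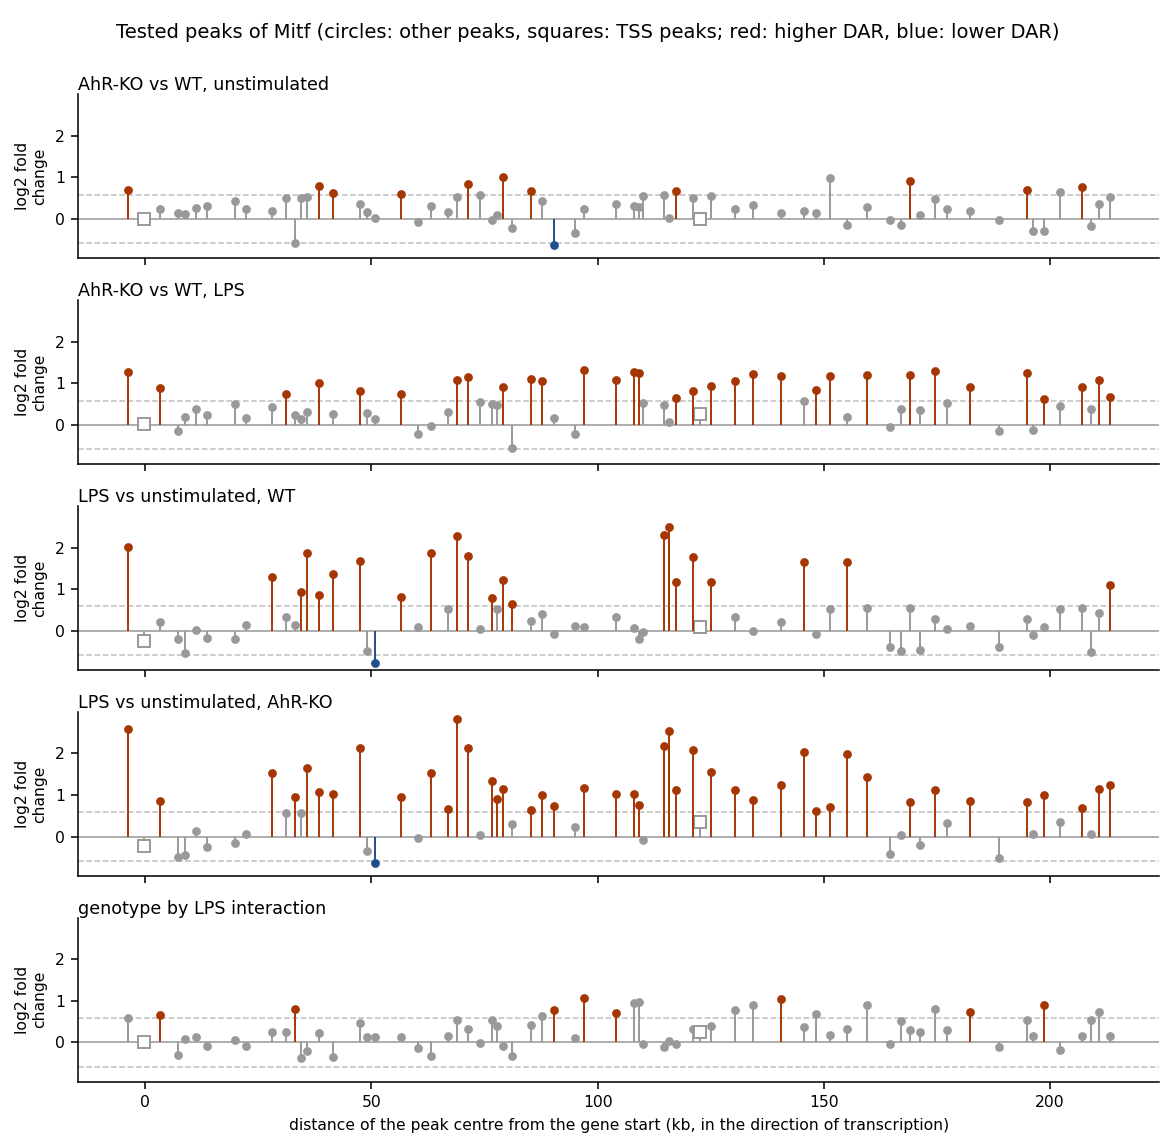
Peaks of Mitf by distance from the gene start (horizontal axis, kb) with the log2 fold change of each tested peak (vertical axis) in the 5 comparisons, 1 panel each; squares are TSS peaks, red points higher and blue points lower DARs. In AhR-KO LPS cells higher peaks are spread along the gene, from 3.9 kb upstream to 213 kb downstream, while the peak at the start is at 0.01.

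Further genotype differences with LPS lay in Tfec, Glb1 and Tfeb, beside those of Atp6v1h and Psap above. A Tfec peak near the 3′ end of the gene (chr6:16833874-16834850) read 7.12, 9.11 and 12 CPM in WT unstimulated, 13.3, 14.8 and 18.1 CPM in AhR-KO unstimulated, 16.4, 18.3 and 21.9 in WT LPS and 32.7, 35 and 36.4 CPM in AhR-KO LPS libraries. It was a DAR in all 4 comparisons between groups, with log2 fold changes of 0.73 (SE 0.0958) and 0.90 (SE 0.0826) for AhR-KO against WT and of 1.01 (SE 0.0933) and 1.18 (SE 0.0853) for LPS. In the other direction, a Glb1 intronic peak nearest to the start of the chemokine receptor gene Ccr4 (chr9:114465431-114466012) opened with LPS mainly in WT. It read 0.347, 0.587 and 0.661 CPM in WT unstimulated, 0.227, 0.305 and 0.432 CPM in AhR-KO unstimulated, 1.46, 3.14 and 4.94 in WT LPS and 0.286, 0.507 and 0.908 CPM in AhR-KO LPS libraries. With LPS the genotypes did not overlap (log2 fold change -2.44, SE 0.258, adjusted p = 4.11e-09). A small Tfeb intronic peak (chr17:47780617-47780859) read 0.745, 1.52 and 2.36 CPM in WT LPS against 0.162, 0.228 and 0.474 CPM in AhR-KO LPS libraries (-2.53, SE 0.337, adjusted p = 2.21e-07).

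The LPS comparisons asked how activation changed the same genes in each genotype. Every member start that was a DAR was less open with LPS. In WT cells 2 of 37 TSS peaks were lower and 0 higher, against 6.8% lower and 4.79% higher of all TSS peaks (11.6% in either direction). In AhR-KO cells 8 of 37 (21.6%) were lower and 0 higher, against 11.8% lower and 5.31% higher of all TSS peaks (17.1% in either direction). The median log2 fold change was -0.14 in WT and -0.22 in AhR-KO, against -0.07 and -0.11 over all TSS peaks, and 29 of the 37 lay below 0 in each genotype. The comparisons in WT and AhR-KO use different libraries, and the difference between them is the interaction given further on.

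Tfec fell most. Its TSS peak (chr6:16898081-16898941) read 14, 16.1 and 17.7 CPM in WT unstimulated and 8.67, 10.3 and 10.7 in WT LPS, and 18.6, 19.7 and 23.6 CPM in AhR-KO unstimulated and 5.23, 8.79 and 10.3 in AhR-KO LPS libraries. The LPS and unstimulated libraries did not overlap in either genotype. The log2 fold change was -0.69 (SE 0.114, adjusted p = 3.41e-06) in WT and -1.30 (SE 0.114, adjusted p = 6.72e-12) in AhR-KO. Ctsk, with the values above, was next in AhR-KO at -1.12 (SE 0.129, adjusted p = 1.45e-08), a 2.17-fold fall, and its change in WT was -0.50 (SE 0.136, adjusted p = 0.00207).

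Further cathepsins lost accessibility at the start. Ctsc (chr7:88277018-88278531) went from 96.3, 99.2 and 110 CPM to 62.8, 65.8 and 70.3 CPM in WT, and from 90.8, 93.1 and 100 to 57.2, 64.8 and 66.7 CPM in AhR-KO cells. This was a DAR in WT at -0.59 (SE 0.0457, adjusted p = 9.89e-14) and just under the fold threshold in AhR-KO at -0.57 (SE 0.0457, adjusted p = 1.61e-13), and in WT it lost the call in 4 of the alternative settings and in 7 of the fits that left out a library. Ctsa, the protective protein of the beta-galactosidase complex, went from 27.7, 30.6 and 41.9 to 18, 18.9 and 20.4 CPM in AhR-KO (-0.76, SE 0.0751, adjusted p = 3.53e-11). Ctsh, an aminopeptidase, went from 40.7, 42.8 and 44.9 to 25.3, 27.3 and 30.1 CPM in AhR-KO (-0.65, SE 0.0512, adjusted p = 8.61e-14). Both starts were also lower in WT LPS than in WT unstimulated libraries, with no overlap. Ctsa spanned 15.7 to 19.3 CPM in WT LPS against 24.7 to 27.3 CPM in WT unstimulated libraries. Ctsh spanned 29.6 to 34.3 against 42.2 to 47.4 CPM. Neither was a DAR in WT or in the interaction. Ctsb (0.15 in WT, 0.12 in AhR-KO), Ctsd (-0.16 and -0.13), Ctsl (-0.07 and 0.12), Ctss (0.20 and -0.02) and Ctsz (-0.06 and -0.07) were not DARs in either genotype.

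Among the membrane and pump genes, Laptm5, a lysosomal transmembrane protein of blood cells, went from 33.4, 38.9 and 45 CPM in AhR-KO unstimulated to 20.2, 23.9 and 25.3 CPM in AhR-KO LPS libraries (-0.75, SE 0.0661, adjusted p = 1.43e-12). In WT the Laptm5 start was lower too, at 25 to 30.7 CPM in LPS against 37.6 to 42 CPM in unstimulated libraries. It was not a DAR in WT or in the interaction. Atp6v0d2 went from 27.9, 29.7 and 30.2 to 15, 17.5 and 18.4 CPM in AhR-KO (-0.79, SE 0.0668, adjusted p = 5.22e-13), and from 18.2, 19.8 and 22.9 to 11.4, 13.3 and 15.3 CPM in WT, a 1.49-fold fall that stayed just under the threshold. Neither gene's LPS libraries overlapped its unstimulated ones in AhR-KO. The remaining lower DARs in AhR-KO were further starts of Tfeb (chr17, from 47736895 and from 47753947), at -0.60 (SE 0.0766) and -0.66 (SE 0.0889), whereas the main Tfeb start was at -0.37. With TMM on TSS peaks both Tfeb calls were lost (-0.51 and -0.56), as was that of Ctsh (-0.55), and the first Tfeb call was also lost without AhR-KO unstimulated replicate 2, AhR-KO LPS replicate 3 or AhR-KO LPS replicate 6 (-0.55 to -0.56).

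The other starts changed less. For WT and AhR-KO in turn, log2 fold changes were -0.50 and -0.40 for Lipa (lysosomal acid lipase), -0.25 and -0.32 for Asah1, -0.14 and 0.12 for Smpd1, -0.12 and -0.05 for Npc1 and -0.10 and -0.22 for Npc2. For the glycosidases they were -0.52 and -0.39 for Gaa, -0.38 and -0.36 for Glb1, -0.05 and -0.38 for Hexa, -0.13 and -0.22 for Gla, -0.10 and -0.10 for Gusb, -0.01 and -0.12 for Man2b1 and 0.34 and 0.06 for Neu1. Lamp1 was at 0.21 and -0.08, Lamp2 at -0.11 and -0.15, Mcoln1 at 0.26 and 0.24, Tpp1 at 0.02 and 0.20, Ppt1 at 0.01 and 0.04, and Atp6v1h at -0.14 and -0.01. No start in this group was a DAR.

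**Figure D4:**
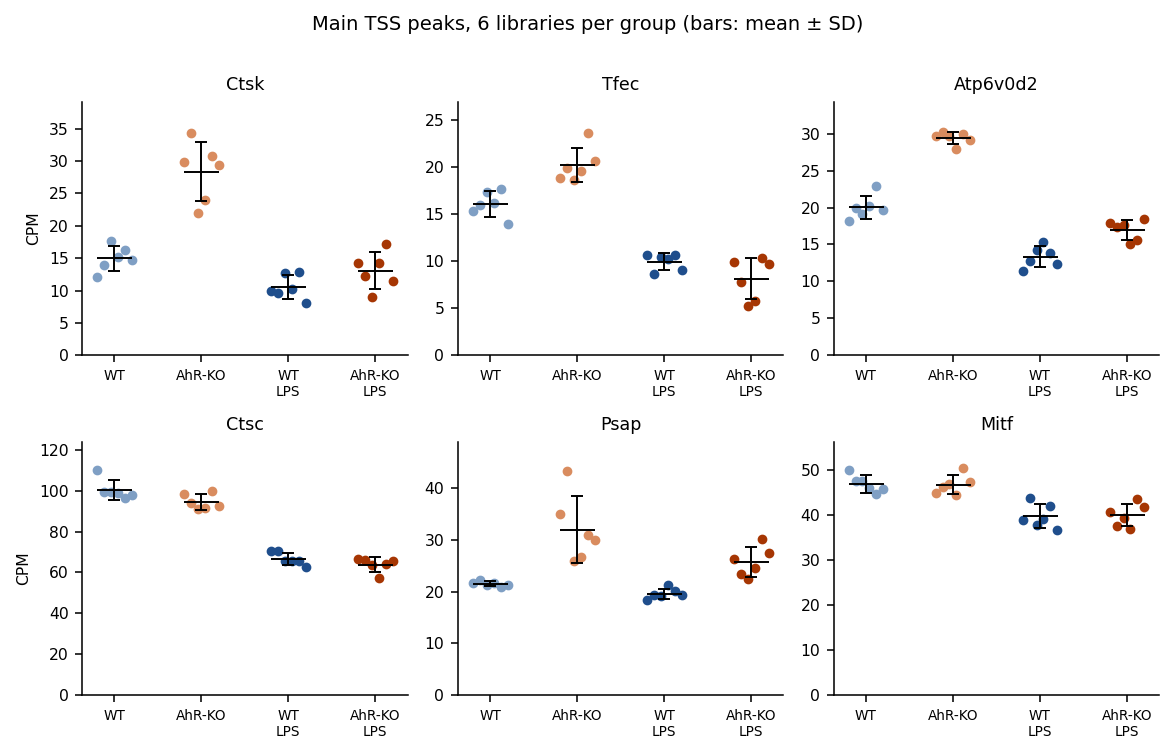
CPM of selected main TSS peaks in each of the 24 libraries (points) by group, with mean ± SD as bars. Ctsk and Atp6v0d2 stand higher in AhR-KO than in WT unstimulated cells with no overlap, Tfec and Ctsc are lower with LPS in both genotypes, and Mitf keeps its level between genotypes.

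The summed TSS peaks of the members were 1071, 1099 and 1181 CPM in WT LPS and 1058, 1111 and 1181 CPM in AhR-KO LPS libraries, below all unstimulated libraries. The macrophage marker starts moved with them, summing to 168, 174 and 188 CPM in WT LPS and 158, 183 and 222 CPM in AhR-KO LPS libraries. In AhR-KO 4 of the 8 were lower DARs and 1 was higher (median log2 fold change -0.60), and in WT 1 was lower and 1 higher. The starts of other cell types summed to 79.2, 84.9 and 86.7 CPM in WT LPS and 66.6, 68 and 72.5 CPM in AhR-KO LPS libraries. The part of either list in the LPS result was not tested.

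Away from the starts LPS moved member peaks both ways. In WT 60 of 292 (20.5%) were higher and 41 (14%) lower, against 27.2% and 22.9% of all such peaks and 50.2% in either direction. In AhR-KO 81 (27.7%) were higher and 50 (17.1%) lower, against 29.3% and 22.4% and 51.7% in either direction. Mitf held 22 of the higher peaks in WT and 44 of those in AhR-KO. Without it, 38 of 225 were higher and 40 lower in WT, and 37 higher and 49 lower in AhR-KO.

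Single peaks in or upstream of Ctsz, Lamp2, Npc2 and Lamp1 opened with LPS, whereas the starts of these genes were not DARs. The peak with the largest change lay upstream of Ctsz (chr2:174444966-174445629), in a stretch whose nearest TSS is that of Tubb1. It was nearly closed in unstimulated cells, at 0.217, 0.404 and 1.05 CPM in WT and 0.364, 0.536 and 0.745 CPM in AhR-KO, and read 5.76, 7.77 and 11 CPM in WT LPS and 10.7, 12.3 and 14.5 CPM in AhR-KO LPS libraries. It was 17.7-fold more open with LPS in WT (log2 fold change 4.15, SE 0.201, adjusted p = 4.57e-19) and 23.3-fold in AhR-KO (4.54, SE 0.183, adjusted p = 1.18e-21). With LPS it was also higher in AhR-KO than in WT (0.60, SE 0.125, adjusted p = 1.71e-04). Its central 300 bases (chr2:174445147-174445446, GRCm38, plus strand) held 2 matches to the AP-1 motif, shown in capitals. This motif was in 19 of the 60 member peaks that were higher with LPS in WT (31.7%) and in 19 of the 81 in AhR-KO (23.5%), against 19.3% of all peaks away from a start.
Ctsz peak: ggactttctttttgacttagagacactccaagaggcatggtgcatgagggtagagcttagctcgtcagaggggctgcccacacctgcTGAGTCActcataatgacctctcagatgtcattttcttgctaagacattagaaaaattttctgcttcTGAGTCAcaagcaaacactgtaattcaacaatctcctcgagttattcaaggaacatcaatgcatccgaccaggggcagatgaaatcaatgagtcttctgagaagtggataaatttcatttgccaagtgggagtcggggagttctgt

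Lamp2, whose product takes part in autophagosome fusion, had an intronic peak (chrX:38428721-38429324) that differed between all 4 groups. It read 0.329, 0.8 and 1.19 CPM in WT unstimulated, 1.65, 2.16 and 2.64 CPM in AhR-KO unstimulated, 6.18, 6.48 and 7.09 in WT LPS and 9.54, 11.1 and 12.5 CPM in AhR-KO LPS libraries, with no overlap between any pair of groups. LPS changed it by 2.99 (SE 0.156, adjusted p = 1.62e-18) in WT and by 2.35 (SE 0.127, adjusted p = 1.94e-18) in AhR-KO, and genotype by 1.35 (SE 0.179) without and 0.72 (SE 0.109) with LPS. An exonic Npc2 peak (chr12:84762545-84765171) read 7.31, 8.43 and 9.99 CPM in WT unstimulated, 10.7, 11.4 and 12.9 CPM in AhR-KO unstimulated, 20.9, 25.2 and 30 in WT LPS and 35, 36.8 and 43.1 CPM in AhR-KO LPS libraries. It rose with LPS by 1.61 (SE 0.0865) in WT and 1.71 (SE 0.0809) in AhR-KO, and its genotype differences of 0.46 and 0.56 stayed under the fold threshold. Npc2 lies on the chromosome of Ahr, 49.22 Mb away. Within Lamp1, an intronic peak (chr8:13162048-13162644) rose from 4.41, 5.34 and 6.74 to 12.5, 14.1 and 17.1 CPM in WT (1.37, SE 0.0941, adjusted p = 3.73e-15).

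Most called peaks of Atp6v0d2, and all called peaks of Lipa, were less open with LPS. Of the 16 Atp6v0d2 peaks away from its start, 9 were lower and 2 higher in WT, and 10 lower and 2 higher in AhR-KO, where 22.9% and 22.4% of all such peaks were lower. Its most open peak (chr4:19893915-19896098) went from 45, 46.1 and 50.2 to 24.2, 27.1 and 28.4 CPM in WT and from 42.4, 44.5 and 48.5 to 21.2, 26.6 and 29.3 CPM in AhR-KO (log2 fold change -0.79, SE 0.0617, adjusted p = 1.03e-13 in WT, and -0.81 in AhR-KO). A nearby intronic peak (chr4:19892283-19892593) was lower by -1.32 (SE 0.109) in WT and -1.53 (SE 0.116) in AhR-KO. Of the 8 tested Lipa peaks away from its start, 5 were lower and 0 higher in each genotype, beside the same shares of all peaks. An exonic one (chr19:34521373-34522432) went from 13.4, 15.6 and 18.4 to 7.95, 8.86 and 9.36 CPM in WT (-0.83, SE 0.0794, adjusted p = 2.34e-11) and from 16.2, 17.4 and 19.8 to 7.7, 8.7 and 9.79 CPM in AhR-KO (-1.04, SE 0.0788, adjusted p = 3.09e-14). The intronic Tfeb peak that was higher without AhR (chr17:47769985-47770194) closed with LPS in both genotypes, to 0.487, 0.614 and 0.797 CPM in WT (-1.78, SE 0.153) and 1.04, 1.22 and 1.33 CPM in AhR-KO (-1.91, SE 0.13). Another Tfeb peak (chr17:47759642-47760380) had a log2 fold change of 0.65 (SE 0.0898) for AhR-KO in unstimulated cells, and of -0.93 in WT and -1.30 in AhR-KO for LPS.

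**Figure D5:**
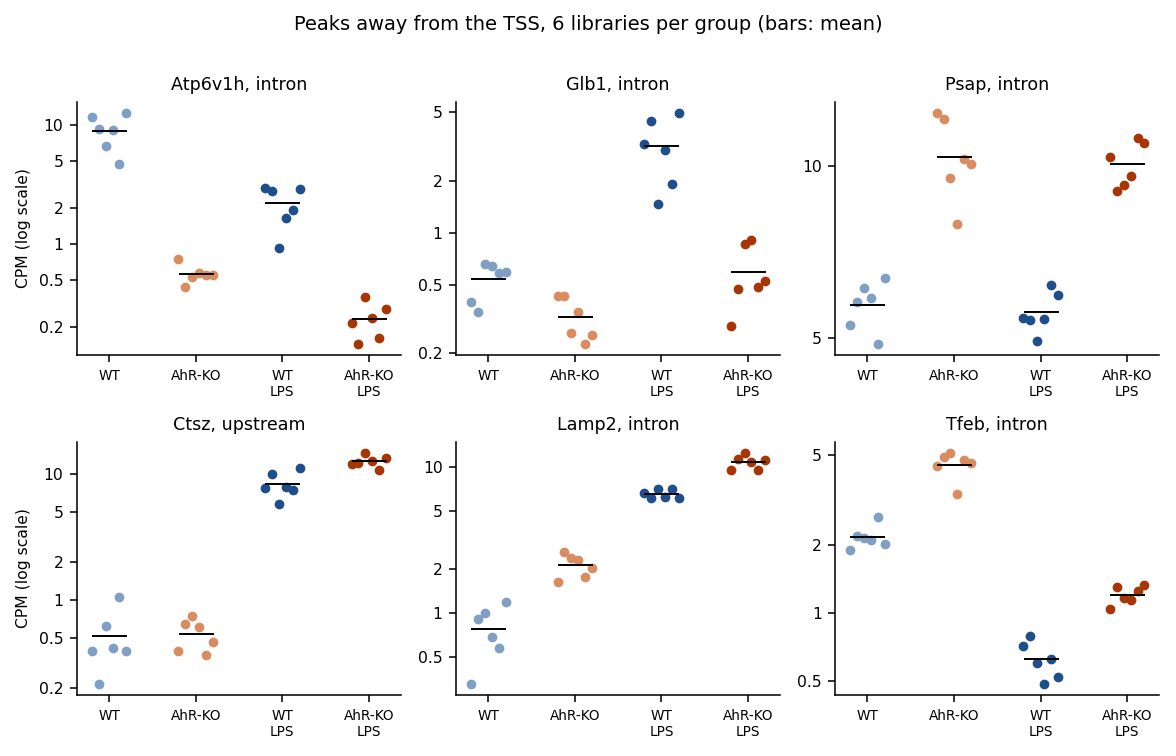
CPM of selected member peaks away from a start in each of the 24 libraries (points, log axis) by group, with the group mean as a bar. The 12 AhR-KO libraries show a less open Atp6v1h peak than any WT library of the same condition, and the Ctsz and Lamp2 peaks are higher in all LPS libraries.

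The interaction compared the genotype effect with LPS to the genotype effect without it. Of the 37 TSS peaks 2 were lower and 0 higher DARs in this comparison, against 2.65% and 1.15% of all TSS peaks, 3.8% in either direction. These were Tfec (-0.62, SE 0.161, adjusted p = 0.00839) and Ctsk (-0.61, SE 0.186, adjusted p = 0.0251), both of which stood higher in AhR-KO without LPS and fell further with it. The genotype difference at the Tfec start was 0.33 (SE 0.111, adjusted p = 0.0164) without LPS and -0.28 (SE 0.116, adjusted p = 0.0458) with it. Both interaction calls rest on an estimate close to the threshold: left-out libraries took the fold of Ctsk under it in 6 fits (-0.55 to -0.58) and that of Tfec in 3 (-0.53 to -0.57), and without AhR-KO LPS replicate 3 there were 0 TSS calls.

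Of the 292 other peaks, 11 were higher (3.77%) and 9 lower (3.08%) in the interaction, against 6.25% and 4.78% of all such peaks, 11% in either direction. Mitf held 8 of the 11 higher. Its peak from 97839687 (to 97840618) read 3.25, 4.74 and 5.8 CPM in WT unstimulated, 2.77, 3.13 and 3.55 CPM in AhR-KO unstimulated, 4.55, 5.06 and 6.11 in WT LPS and 5.41, 5.89 and 7.6 CPM in AhR-KO LPS libraries, an interaction of 0.81 (SE 0.167, adjusted p = 9.70e-04). The LPS change there was 0.14 in WT and 0.95 in AhR-KO. In the other direction stood the 2 Atp6v0d2 intronic peaks, from 19911204 (-1.10, SE 0.21, adjusted p = 4.24e-04) and from 19912590 (-0.63, SE 0.116, adjusted p = 2.98e-04), and 2 Ctss peaks. Ctss, cathepsin S, trims the invariant chain in antigen presentation. The upstream Ctss peak (chr3:95523529-95524387) went from 11.2, 11.6 and 12.9 to 5.73, 6.86 and 8.5 CPM with LPS in WT and from 13.9, 17.8 and 21.3 to 4.59, 5.5 and 7.12 CPM in AhR-KO (interaction -0.81, SE 0.154, adjusted p = 4.23e-04). The intronic one (chr3:95541084-95541651) rose from 0.348, 0.563 and 0.824 to 1.95, 2.87 and 3.55 CPM in WT and from 0.482, 0.86 and 0.98 to 0.948, 1.5 and 1.82 CPM in AhR-KO (interaction -1.33, SE 0.303, adjusted p = 0.00246).

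By role, peaks away from a start that were lower or higher in AhR-KO are given for unstimulated and then for LPS cells, where 13.4% and 13.7% of all such peaks were lower and 10.6% and 14.4% higher. The transcription factors had 4 lower and 15 higher of 98, then 2 lower and 35 higher, of which Mitf held 11 and 32 of the higher. The cathepsins had 1 lower and 14 higher of 57, then 1 lower and 6 higher. Lipid and sphingolipid genes had 2 lower and 8 higher of 36, then 3 lower and 6 higher, and membrane proteins 1 lower and 5 higher of 30, then 0 lower and 3 higher. Glycosidases had 3 lower and 1 higher of 32, then 4 lower and 4 higher. The proton pump genes had 2 lower and 3 higher of 28, then 1 lower and 3 higher, and the other peptidases and thioesterase 1 lower and 0 higher of 11, then 1 lower and 1 higher. For LPS, 22.9% of all such peaks were lower and 27.2% higher in WT, and 22.4% and 29.3% in AhR-KO. Proton pump genes had 13 lower and 3 higher in WT, then 14 lower and 3 higher in AhR-KO, and lipid genes 10 lower and 6 higher, then 11 lower and 5 higher. Glycosidases had 2 lower and 8 higher, then 3 lower and 10 higher, and membrane proteins 3 lower and 7 higher in each genotype. Cathepsins had 4 lower and 10 higher, then 8 lower and 7 higher, transcription factors 8 lower and 25 higher, then 9 lower and 48 higher, and the other peptidases and thioesterase 1 lower and 1 higher, then 2 lower and 1 higher. No tested peak of Mcoln1 (4) or Gusb (3), the beta-glucuronidase, was a DAR in any of the 4 comparisons between groups.

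The other genes of the pathway were described by their TSS peaks alone. Of 57 further lysosome genes 56 had a tested TSS peak, to be read beside the 6.7%, 7.5%, 11.6%, 17.1% and 3.8% of all TSS peaks called in the 5 comparisons. In unstimulated cells 1 was higher in AhR-KO (the acid phosphatase Acp2, 0.60, adjusted p = 8.86e-08) and 0 lower, and with LPS 1 was lower (Gpnmb, a glycoprotein of macrophages, -0.62, adjusted p = 2.18e-06) and 0 higher. LPS lowered 2 in WT, the heparan sulfatase Sgsh (-0.60) and the phospholipase Pla2g15 (-0.92). In AhR-KO it lowered 9 and raised 1, with medians over the 56 of -0.07 in WT and -0.24 in AhR-KO, against -0.07 and -0.11 over all TSS peaks. The 9 included Pla2g15 (-1.57), the sorting receptor Sort1 (-1.14), the tetraspanin Cd63 (-0.84) and Cd68 (-0.68), and the higher one was the mannose 6-phosphate receptor Igf2r (0.61). The interaction was lower for 3 of the 56: Sort1 (-0.84), Acp5 (-0.73) and Pla2g15 (-0.66).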

How the data were processed

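The authors deposited 1 table of raw fragment counts per consensus peak for the 24 libraries and 1 list of broad peaks per library, in which peaks carry a −log10 q-value (lowest values of 1 to 1.03 per list). Per the study's methods and the file headers, the authors ran the nf-core atacseq pipeline on mm10, called peaks per library with MACS2, merged them over all libraries and counted fragments with featureCounts; no replicates were pooled. The submitters' processing notes also name bcl2fastq 2.20.0. A fragment that overlaps several peaks was counted in each, and the table holds no reads from outside peaks. All 24 count columns matched 1 library by name.

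Genes and starts were those of the GENCODE annotation of GRCm38, the assembly behind mm10, and 0 peaks reached beyond a chromosome end. The start of any protein-coding transcript of a gene counted as a TSS. Members and gene lists were chosen with earlier results of these data known. Every member is named by its main TSS peak, together with any further TSS peak that was a DAR. Of the other peaks, the text draws on the 4 DARs of lowest p, per direction and comparison; the 2 Ctsk peaks beside its start, and Glb1 from 114441790, were chosen after their values were seen. The test was that of edgeR 4.0.16 under R 4.3.3 (filterByExpr by group, TMM, robust quasi-likelihood fit, group as the only term) over 174193 peaks, of which 329 were member peaks; 15 member peaks had too few counts to be tested. P-values are two-sided, with Benjamini-Hochberg adjustment across every peak tested, and the SE is the size of the log2 fold change divided by the square root of the F value. TMM factors ran from 0.976 to 1.04. A consensus peak counted as called in a library when that library's list held a peak overlapping it by 1 base or more. The procedure was tested on simulated data. The closest pair of libraries of 1 group differed by a chi-square of 1.26 per peak, above sampling noise, so no library was a duplicate of another and each was counted once; this does not show that they came from separate animals. Alternatives were RLE size factors, TMM on TSS peaks, no filter, DESeq2 1.42.0, a replicate block, left-out libraries, other fold limits, other gene regions and, added after seeing the data, leaving out Mitf. P-values measure the spread between these libraries, and the count of fragments limits weak peaks most.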

Additional observations from a re-analysis of the deposited data

Results flagged for a closer look

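The checks for stray libraries covered 256 sets of 6 libraries, 64 named peaks in 4 groups, and 7 held 1 library far from the other 5, where chance gives about 1 in 20. At the Ctsc start, WT unstimulated replicate 1 read 110 CPM against 96.3 to 99.5 in the others, and AhR-KO LPS replicate 4 read 57.2 CPM against 63.5 to 66.7. The Glb1 start read 54.9 CPM in AhR-KO unstimulated replicate 2 against 45.4 to 47.6, and the Npc2 start 52.8 CPM in WT LPS replicate 2 against 42.5 to 45. Away from starts, the Tfeb peak from 47769985 read 3.38 CPM in AhR-KO unstimulated replicate 4 against 4.51 to 5.12, still above all 6 WT unstimulated libraries. The upstream Mitf peak from 97802954 read 1.14 CPM in WT LPS replicate 1 against 1.53 to 1.75, and the Atp6v0d2 peak from 19893915 read 50.2 CPM in WT unstimulated replicate 5 (the lowest total of all, 8.54 M) against 45 to 46.9.

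At 13 of the 64 named peaks the genotype effect differed between LPS and unstimulated cells by the edgeR interaction term, on the log2 scale and with adjusted p-values over all peaks. It was negative at the starts of Ctsk (-0.61, 0.0251) and Tfec (-0.62, 0.00839), at Atp6v0d2 from 19911204 (-1.10, 4.24e-04) and from 19912590 (-0.63, 2.98e-04), at Glb1 from 114465431 (-1.72, 0.0151), at Lamp2 from 38428721 (-0.63, 0.0368) and at Ctss from 95523529 (-0.81, 4.23e-04) and from 95541084 (-1.33, 0.00246). It was positive at Tfec from 16847833 (0.88, 0.00681) and at 4 Mitf peaks: from 97909736 (0.70, 0.00493), 97839687 (0.81, 9.70e-04), 97897256 (0.79, 0.00293) and 97810181 (0.65, 0.00593). The naming rule took in the 4 interaction DARs of lowest p per direction and any TSS DAR. The 13 and their signs thus follow in part from that choice. Over all 292 tested member peaks away from a start, 6.85% were interaction DARs, against 11% of all such peaks.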

How the results depend on the processing

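Of 53 named results under 371 settings, with the lowest and the highest value over left-out libraries each taken as 1 setting, 359 kept direction and side of the threshold, 12 lost the call and 0 turned; fit by fit, 27 calls were lost, which lay in the Ctsc, Ctsh and 2 Tfeb starts with LPS (down to -0.51) and in the Ctsk, Tfec and Atp6v0d2 (from 19912590) interactions. Counts of DARs below follow the order AhR-KO without LPS, AhR-KO with LPS, LPS in WT, LPS in AhR-KO, interaction. With no fold threshold, TSS DARs numbered 19, 11, 21, 25 and 4 and other DARs 132, 137, 171, 206 and 35. With a minimum fold of 2, they numbered 0, 0, 0, 2 and 0 at TSS and 13, 30, 53, 68 and 8 elsewhere. TSS DARs without LPS were 3 with RLE size factors and 3 with DESeq2, in place of 1. For LPS in WT they were 1 with RLE, 1 with TMM on TSS peaks, 1 with no filter and 1 with DESeq2, in place of 2, and for LPS in AhR-KO 5 with TMM on TSS peaks, in place of 8. Without Mitf, other DARs were 38 for AhR-KO with LPS, 86 for LPS in AhR-KO and 12 for the interaction. Leaving out 1 library gave 1 to 2, 0 to 0, 1 to 3, 7 to 8 and 0 to 2 TSS DARs and 50 to 69, 67 to 79, 99 to 106, 127 to 134 and 18 to 25 other DARs. The replicate block gave 1, 0, 2, 8 and 2 TSS DARs and 63, 70, 100, 132 and 21 others. It was not used for the main results because the labels do not tie a number to an animal. Same-number correlations ran from -0.144 to 0.343, with a mean of 0.0746 against -0.0147 for other pairs. Of the 24 libraries, 12 lay closest to their own number. Whether libraries of the same number share a source was not tested. Within a genotype 5 of 6 same-number pairs were over 0.1 in WT (0.0486 to 0.343) and 3 of 6 in AhR-KO (0.00877 to 0.21). TMM on TSS peaks moved the median over all TSS peaks for LPS in AhR-KO from -0.11 to -0.01. By level, 28.1% of member peaks away from a start below 2.95 CPM were higher in AhR-KO with LPS, against 16.8% of all such peaks of that level, and 11.6% against 10.1% at or above it. Mitf was included here and held 32 of the 58 higher peaks of both levels. Without Mitf, 11.6% over both levels were higher, against 14.4% of all such peaks.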
